A study of Mus musculus with 6 samples.

Results

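The endoplasmic reticulum (ER) genes described here are 34 genes for ER chaperones, for the unfolded protein response and for protein translocation into the ER. These genes were chosen by name, with earlier results of these data known. They were read from regulatory T cells (Treg) of HDAC6 knockout and wild-type mice, magnetically separated as CD4+CD25+ cells. Of the 34 genes, 33 had a probe set that named no other gene, out of 12393 genes measured in this way. Sec61g, a small subunit of the translocation channel, shared its probe set with 2 other genes and is not given a value. Each gene was read from its brightest probe set over the 6 arrays, on a log2 scale, and differences are knockout minus wild type.

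The 3 knockout arrays carried the genotype label HDAC6 knock out with no strain, and the 3 wild-type arrays were labelled C57BL6. Age, sex, allele and the number of animals behind each array were not given in the sources used here. The design text calls the samples independent. Nothing more says that they came from separate animals, so the p-values measure the spread between these samples, which may be technical. HDAC6 is a deacetylase found mostly in the cytoplasm, and the title of the study sets it beside the chaperone HSP90 in Foxp3+ Treg. The targeted gene, Hdac6, read 7.54, 7.86 and 7.64 in knockout arrays against 8.54, 8.23 and 8.42 in wild-type arrays, without overlap, in the direction the labels give. Its difference was -0.71 (SE 0.11), with a limma adjusted p of 0.0862. Where its probe set lies relative to the deleted part is not given in the sources used here.

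Proteins bound for the membrane or for secretion enter the ER through the SEC61 channel, are glycosylated and are folded there by chaperones and by enzymes that form disulfide bonds. When unfolded proteins build up, the sensors PERK, IRE1 and ATF6 in the ER membrane raise folding capacity, slow translation and send misfolded proteins to degradation. T cells use these pathways on activation, and antibody-secreting plasma cells use them constantly.

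Of the 33 genes, 0 passed an adjusted p of 0.05 in limma's moderated test over all genes, where 20 of 12393 genes (0.161%) passed, 7 higher and 13 lower in the knockout. The number over all genes moved with single arrays: it was 3 without knockout replicate 2 or wild type replicate 2 and 8 without knockout replicate 1. At an unadjusted p under 0.05 there were 3 of the 33 (Edem1, Chac1 and Atf6), all higher in the knockout, against 11.2% of all genes in either direction and 5.7% higher. An unmoderated test also called 0 of the 33. The genotypes did not overlap for 4 of the 33 (Edem1, Syvn1, Chac1 and Sec61a1), all higher in the knockout. Over all genes the share without overlap was 18.6%, with 8.28% higher and 10.3% lower. Counted by sign, 19 of the 33 were higher and 14 lower, and 50.7% of all genes were higher. The median difference was 0.03 over the 33 genes and 0.00 over all genes. A difference of at least 0.25 in size was seen for 4 of the 33 (Asns, Edem1, Atf6 and Chac1) and for 11.1% of all genes. Counted in either direction, the shares of the 33 genes under the unadjusted p and without overlap were below those of all genes. Counted upward alone they were above, by less than 2 genes of the 33.

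Each 95% interval bounds what could have been missed in a gene's brightest probe set, for that gene alone and on the scale of the deposited values. Those values can understate changes of dim and near-saturated probe sets, so the change of the transcript could be larger. Dimmer probe sets could reach further: for Dnajc3 the lower bound was -0.36 in the brightest and -0.88 in a dimmer one. For 32 of the 33 genes the interval lay within a log2 difference of 1 in either direction, and for 27 it lay within 0.5. The exception at the wider limit was Asns, whose interval reached -1.91. The interval's median half-width over the 33 genes was 0.24.

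**Figure D1:**
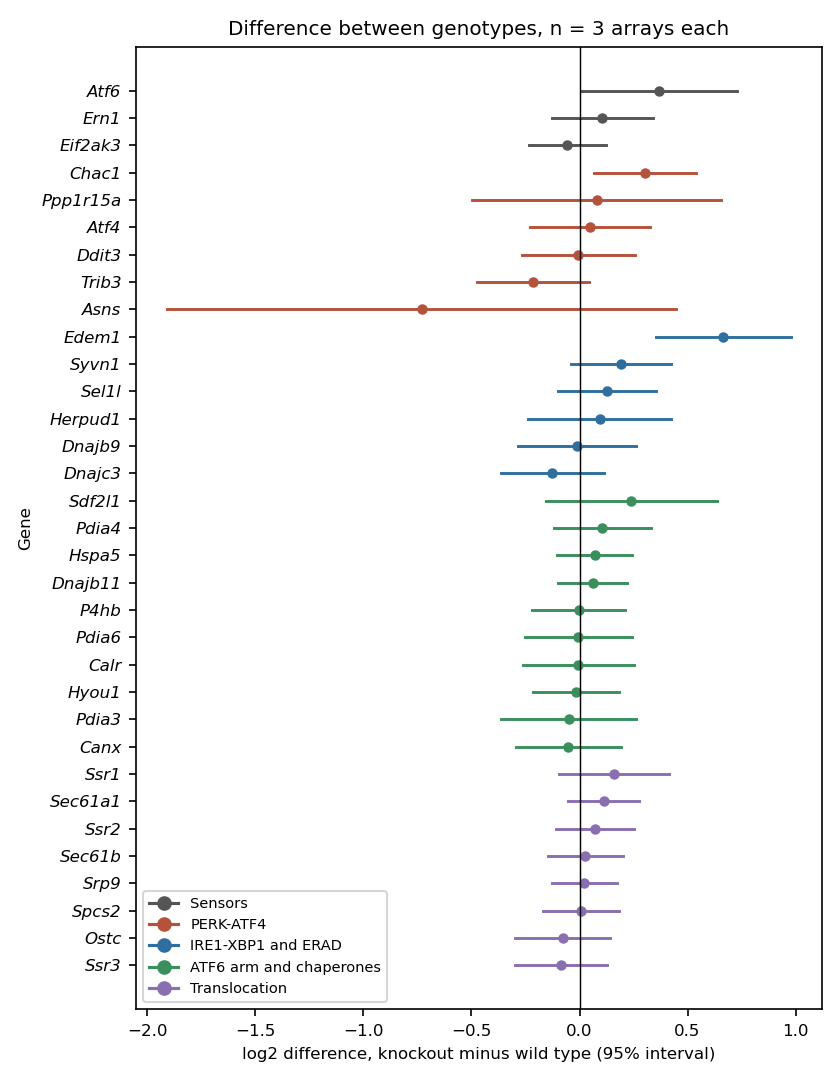
Log2 difference between knockout and wild type for 33 genes, ordered by arm, with points for the estimate and lines for limma's 95% interval (n = 3 arrays per genotype). Edem1 has the largest positive difference (0.67), Asns the largest negative one with the widest interval, and the intervals of the 10 chaperone genes all include 0.

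Among the sensors, Atf6 was the one with the larger difference. Atf6, whose protein is cut free from the membrane under stress to become a transcription factor, read 7.30, 7.0 and 7.37 in knockout arrays against 6.56, 7.05 and 6.95 in wild-type arrays. Knockout replicate 2 lay inside the wild-type range. The difference was 0.37 (SE 0.15, 95% interval 0.01 to 0.73), with a limma adjusted p of 0.431. Without wild type replicate 1, the lowest array, it was 0.22.

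Ern1, which encodes IRE1, the kinase and RNase that splices Xbp1 mRNA, read 5.76, 5.78 and 5.69 in knockout arrays against 5.77, 5.44 and 5.70 in wild-type arrays. The low array was wild type replicate 2, and without it the difference of 0.11 (SE 0.10) became 0.01. These values lie below the array medians (6.22 to 6.27), and without detection calls the expression of Ern1 in these cells is not established. Eif2ak3, which encodes PERK, the kinase that slows translation through eIF2, read 8.36, 8.43 and 8.43 against 8.38, 8.57 and 8.44. Its difference was -0.06 (SE 0.08), and the limma adjusted p was 0.744 for Ern1 and 0.834 for Eif2ak3. The median over the 3 sensors was the Ern1 value of 0.11, and 0.01 without wild type replicate 2.

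In the PERK and ATF4 arm the 6 genes split evenly, 3 higher and 3 lower, with a median of 0.02. Atf4, the transcription factor made when PERK slows translation, differed by 0.05 (SE 0.12), and Ddit3, which encodes the stress factor CHOP, by -0.01 (SE 0.11). Ppp1r15a encodes the phosphatase subunit that restores translation, and it differed by 0.08 (SE 0.24). These 3 genes had their lowest wild-type value in replicate 1 and their lowest knockout value in replicate 1. For Ppp1r15a those arrays read 10.11 and 10.13, while the other 4 read 10.70 to 10.89.

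The other genes of this arm, Chac1, Trib3 and Asns, did not share a direction. Chac1, an enzyme that breaks down glutathione, read 4.59, 4.50 and 4.61 in knockout arrays against 4.10, 4.45 and 4.24 in wild-type arrays. Every knockout array lay above every wild-type array, by 0.30 on average (SE 0.10, limma adjusted p = 0.330). These values lie close to the lower quartiles of the arrays (4.14 to 4.25), and without detection calls the gene's expression in these cells is not established. Trib3, a pseudokinase that feeds back on ATF4, read 5.74, 5.80 and 5.88 against 5.80, 6.08 and 6.19. The genotypes overlapped, and the difference was -0.22 (SE 0.11, limma adjusted p = 0.534). Trib3 read below the array medians (6.22 to 6.27), so its expression is not established either.

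Asns, the enzyme that makes asparagine, had both the largest difference in size and the largest spread of the 33 genes. It read 7.52, 5.73 and 7.50 in knockout arrays against 8.23, 7.42 and 7.29 in wild-type arrays, means of 6.92 (SD 1.02, n = 3) and 7.65 (SD 0.51, n = 3). Knockout replicate 2 was far below the other 5 arrays. Its second probe set repeated the pattern, with 6.65, 4.60 and 6.45 against 7.32, 6.48 and 6.53. The difference was -0.73 (SE 0.50, limma adjusted p = 0.643), and -0.14 without knockout replicate 2.

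Sequences around the ATF4 recognition motif are shown for the 2 genes of this arm that hold it before their start site, because their differences had opposite signs. The motif searched was TGATGNAA, named CARE, on both strands of windows running from 250 bases before to 50 bases after the start site (RefSeq, build GRCm38.p6). Windows were found for 29 of the 34 genes, and 1304 of all 32851 windows (3.97%) held the motif. It was found in Asns, Chac1, Trib3 and Herpud1, in Trib3 after the start site. The stretches below run 5′ to 3′ along the gene, with the match in capitals: Asns at chr6:7693210-7693262 on the minus strand, and Chac1 at chr2:119351019-119351086 on the plus strand, where the match is on the opposite strand to the gene.
Asns: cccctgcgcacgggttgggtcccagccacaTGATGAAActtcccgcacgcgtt
Chac1: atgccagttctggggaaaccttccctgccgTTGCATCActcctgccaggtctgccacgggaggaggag

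Of 29 further measured genes of the PERK, eIF2 and ATF4 pathway (30 listed), 21 were higher and 8 lower, and 0 passed limma's adjusted threshold over all genes. At an unadjusted p under 0.05 there were 6 higher and 0 lower, against 5.7% of all genes higher and 11.2% in either direction, and the median was 0.08. Sesn2, a stress-induced inhibitor of the growth kinase mTORC1, read 6.48, 6.41 and 6.46 against 6.21, 6.16 and 6.15. The genotypes did not overlap, and their means differed by 0.28 (SE 0.06, limma adjusted p = 0.172). Eif2ak2 encodes PKR, the eIF2 kinase that senses viral RNA and is induced by interferon, and it differed by 0.61 (SE 0.18, limma adjusted p = 0.285). Nupr1, a small stress-induced chromatin protein, overlapped between the genotypes and differed by 0.51 (SE 0.17, limma adjusted p = 0.324). It read 4.38 to 5.27, between the lower quartiles (4.14 to 4.25) and the medians (6.22 to 6.27) of the arrays. Without detection calls its expression in these cells is not established either.

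Degradation from the ER held the largest positive difference of the 33 genes. Edem1, a lectin-like protein that passes misfolded glycoproteins to degradation and is a target of XBP1, read 10.09, 9.98 and 10.23 in knockout arrays against 9.22, 9.39 and 9.70 in wild-type arrays. Every knockout array lay above every wild-type array. The difference was 0.67 (SE 0.13, 95% interval 0.35 to 0.98), with a limma adjusted p of 0.139 over all genes. Across the alternatives that adjusted p ranged from 0.0543 to 0.361, so Edem1 passed 0.05 under none of those run. The gene's second probe set read 9.45, 9.49 and 9.60 against 9.39, 9.42 and 9.42, a difference of 0.11 (SE 0.07). It did not overlap either, but its difference was much smaller, and the mean of both probe sets differed by 0.39.

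The complex that carries out this degradation showed smaller differences. Syvn1, the ubiquitin ligase HRD1, read 8.69, 8.65 and 8.96 in knockout arrays against 8.56, 8.64 and 8.52 in wild-type arrays. The groups were separate by a margin set by knockout replicate 2 and wild type replicate 2, and the difference was 0.19 (SE 0.10, limma adjusted p = 0.533), or 0.10 without knockout replicate 3. Sel1l, the adaptor of that ligase, read 7.27, 7.09 and 7.22 against 7.19, 7.10 and 6.90, with overlap and a difference of 0.13 (SE 0.10, limma adjusted p = 0.680). Herpud1, which organizes the complex, differed by 0.09 (SE 0.14), and Dnajb9, a J-domain partner of BiP, by -0.01 (SE 0.12).

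Dnajc3, a luminal co-chaperone of BiP also known as p58IPK, went the other way, and by an amount that depended on the probe set. The brightest of its 5 probe sets read 10.21, 9.94 and 10.27 in knockout arrays against 10.19, 10.29 and 10.32 in wild-type arrays, a difference of -0.13 (SE 0.10). The other 4 differed by -0.35, -0.48, -0.46 and -0.46. In the next brightest probe set, knockout arrays read 8.53, 8.28 and 8.28 and wild-type arrays 8.78, 8.70 and 8.64, without overlap. All 5 were lower in the knockout, and 0 passed (limma adjusted p over probe sets of 0.247 for the separate one). In each of the 4 dimmer probe sets knockout replicate 1 lay above the other knockout arrays.

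Over the 68 probe sets of the 33 genes, 0 passed limma's adjusted threshold, against 0.194% of all 22626 probe sets, and an unadjusted p under 0.05 was seen for 6, against 10.6%. The genotypes did not overlap for 7 of the 68, against 17.2%. Unlike the brightest probe sets, these were not all higher in the knockout. Those under the unadjusted p included dimmer probe sets of Dnajc3 that were lower. Of those without overlap, 1 of Dnajc3 and 1 of Srp9 were lower. Of the 19 genes with more than 1 probe set, 8 had the same sign in each of them, and in 4 the differences were at least 0.25 apart: Edem1, Dnajc3, Hyou1 and Ssr1. A gene's sign was therefore read from 1 probe set of several that could differ.

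**Figure D2:**
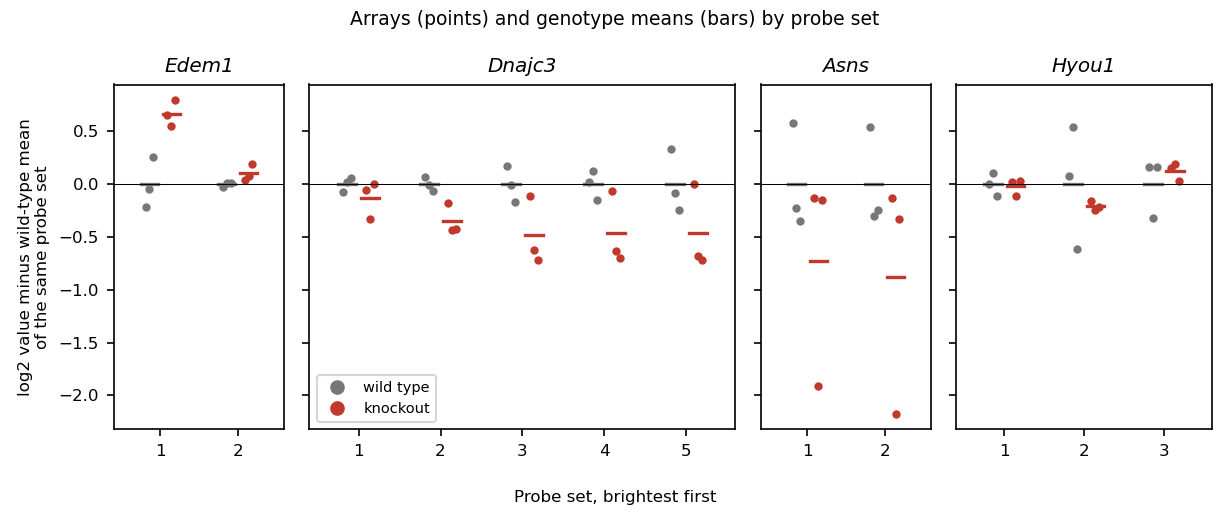
Log2 value of each array minus the wild-type mean of the same probe set, for Edem1, Dnajc3, Asns and Hyou1, with probe sets numbered from the brightest (points are arrays, bars are genotype means). The means of the brighter Edem1 probe set differ by 0.67 and those of the dimmer one by 0.11, 4 of the 5 Dnajc3 probe sets are lower by 0.35 to 0.48, and 1 knockout array sets the mean of both Asns probe sets.

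Of 21 further measured degradation genes (23 listed), 11 were higher and 10 lower, with a median of 0.00, and 0 passed limma's adjusted threshold. Ufd1, a partner of the p97 segregase that pulls proteins out of the membrane, differed by -0.29 without overlap (SE 0.08, limma adjusted p = 0.208). Edem2, a mannosidase relative of Edem1, differed by 0.26 without overlap (SE 0.07, limma adjusted p = 0.233). Derl3, a channel component found in secretory cells, read 8.01, 7.80 and 8.71 against 6.98, 7.59 and 7.49, without overlap and with a difference of 0.82 (SE 0.26, limma adjusted p = 0.307).

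The chaperones and oxidoreductases of the ER lumen, the main targets of ATF6, showed small differences of either sign. Of the 10 genes 4 were higher and 6 lower, their differences ran from -0.05 to 0.24, the median was -0.01, and the genotypes overlapped for each of them. Their 95% intervals ran from -0.36 (Pdia3) to 0.63 (Sdf2l1), or from 1.29-fold lower to 1.55-fold higher, so a larger difference lies outside the interval of each gene's brightest probe set. A dimmer probe set of Hyou1 had a wider interval, from -0.82 to 0.41.

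Hspa5 encodes BiP, the HSP70 of the ER and the usual readout of an unfolded protein response. It read 12.14, 12.08 and 12.14 in knockout arrays against 11.99, 12.16 and 12.00 in wild-type arrays, means of 12.12 (SD 0.03, n = 3) and 12.05 (SD 0.09, n = 3). Wild type replicate 2 was the highest of the 6 arrays. The difference was 0.07 (SE 0.07, 95% interval -0.10 to 0.24, limma adjusted p = 0.777).

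Sdf2l1, a partner of BiP and its J-domain proteins, had the largest difference of the 10 and read 8.83, 8.56 and 9.06 against 8.45, 8.88 and 8.41. The genotypes overlapped, and the difference was 0.24 (SE 0.17, limma adjusted p = 0.650). Pdia4, a disulfide isomerase, read 9.55, 9.36 and 9.54 against 9.39, 9.50 and 9.24, with a difference of 0.10 (SE 0.10, limma adjusted p = 0.736). Again wild type replicate 2 reached the knockout range.

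The other disulfide isomerases, Pdia3, Pdia6 and P4hb, differed by -0.05 (SE 0.13), -0.01 (SE 0.11) and -0.00 (SE 0.09). The lectin chaperones Calr and Canx, which hold glycoproteins until they are folded, differed by -0.01 (SE 0.11) and -0.05 (SE 0.10). Hyou1, the nucleotide exchange factor of BiP, differed by -0.02 (SE 0.08), and its J-domain partner Dnajb11 by 0.06 (SE 0.07).

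What the chaperone genes did share was the order of the arrays within a genotype. In wild type, replicate 2 was the highest of the 3 arrays for 10 of the 10 chaperone genes, and replicate 3 was the lowest for 9. Over all genes wild type replicate 2 was the highest for 30.8% and replicate 3 the lowest for 30.6%. In the knockout, replicate 1 was the highest for 7 of the 10 and replicate 2 the lowest for 7, against 29.4% and 28.6% of all genes. Relative to the wild-type mean, the 10 genes averaged 0.13, -0.06 and 0.03 in the knockout arrays and -0.01, 0.13 and -0.12 in the wild-type arrays. The spread between arrays of a genotype was thus larger than the mean difference between genotypes, 0.03.

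**Figure D3:**
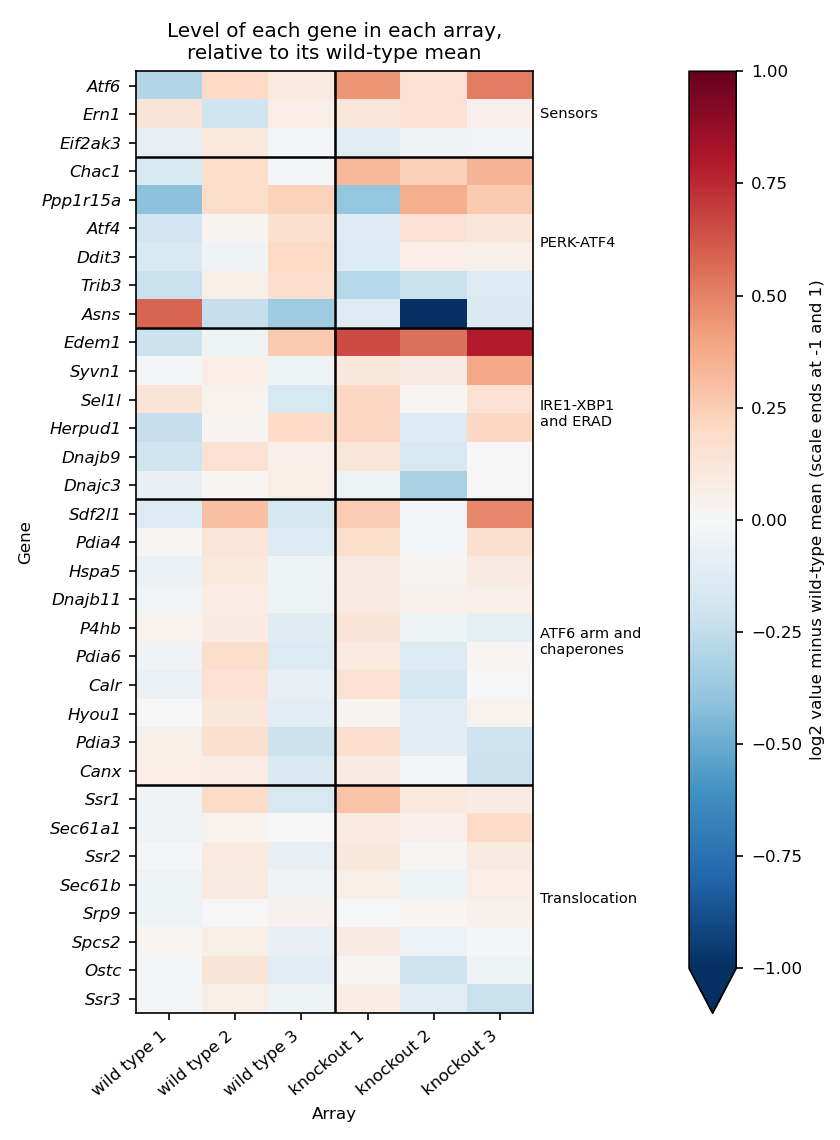
Log2 value of each of the 33 genes in each array minus its wild-type mean, in colour, with the genes in arms from the sensors at the top to translocation at the bottom; the knockout replicate 2 value of Asns is below the end of the scale. The chaperone rows are high in wild type replicate 2 and knockout replicate 1 and low in wild type replicate 3, and Edem1 is high in the 3 knockout arrays.

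Promoter stretches are shown for the genes that carry the ER stress element before their start site, because ATF6 is known to act on chaperone genes through it. The element, ERSE, is CCAAT and CCACG with 9 bases between them, and its shorter form, ERSE-II, is ATTGG and CCACG with 1 base between them. Both strands of the same windows were searched. ERSE was found in 39 of 32851 windows (0.119%) and ERSE-II in 12 (0.0365%). Among the 29 genes with a window, ERSE was found in 6 (Hspa5, Calr, Canx, Pdia6, Dnajc3 and Syvn1) and ERSE-II in 2 (Herpud1 and Dnajb11, in Dnajb11 after the start site). The motif TGACGTGG, named UPRE, was in 0 of the 29 and in 0.676% of all windows. It shares the letters CCACG, read on the opposite strand, with both ERSE forms. Edem1 held none of the 4 motifs searched in this window.

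The stretches run 5′ to 3′ along the gene, with the element in capitals (RefSeq, build GRCm38.p6). They lie at chr2:34771995-34772073 on the plus strand (Hspa5), chr8:84847045-84847123 on the minus strand (Calr), chr11:50325770-50325848 on the minus strand (Canx), chr12:17266461-17266539 on the plus strand (Pdia6), chr14:118937797-118937875 on the plus strand (Dnajc3), chr19:6046502-6046575 on the plus strand (Syvn1) and chr8:94386347-94386417 on the plus strand (Herpud1). In Calr the element is on the opposite strand to the gene. The capitals of Herpud1 mark ERSE-II.
Hspa5: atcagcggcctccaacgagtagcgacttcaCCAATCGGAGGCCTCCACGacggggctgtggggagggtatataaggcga
Calr: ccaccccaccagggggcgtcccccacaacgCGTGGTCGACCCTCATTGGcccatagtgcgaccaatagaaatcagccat
Canx: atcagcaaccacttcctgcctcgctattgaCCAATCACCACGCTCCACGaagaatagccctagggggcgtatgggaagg
Pdia6: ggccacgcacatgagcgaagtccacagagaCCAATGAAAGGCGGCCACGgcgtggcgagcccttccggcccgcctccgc
Dnajc3: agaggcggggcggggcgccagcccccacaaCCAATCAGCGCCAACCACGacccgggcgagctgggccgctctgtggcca
Syvn1: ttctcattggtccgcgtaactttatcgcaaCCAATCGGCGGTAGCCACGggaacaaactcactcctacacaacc
Herpud1: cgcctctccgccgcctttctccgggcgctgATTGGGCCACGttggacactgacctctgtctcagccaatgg

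Counted back from the start site, the last base of the element lay at position -47 in Hspa5, -144 in Calr and -26 in Syvn1, and between the last pair in the other 4 genes. The 8 genes with either form had differences from -0.13 (Dnajc3) to 0.19 (Syvn1), 4 higher and 4 lower, with a median of 0.03. The 20 measured genes with a window and neither form had a median of 0.02, with a range from -0.73 to 0.67.

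Of 26 further measured XBP1 and ATF6 targets and folding genes (29 listed), 17 were higher and 9 lower, with a median of 0.05 and a range from -0.41 to 0.82, and 0 passed limma's adjusted threshold. At an unadjusted p under 0.05 there were 3 higher and 3 lower, against 11.2% of all genes in either direction. The genotypes did not overlap for 4 higher and 4 lower, against 18.6% of all genes in either direction. Txndc5, a disulfide isomerase abundant in plasma cells, read 10.42, 9.97 and 10.76 against 9.50, 9.70 and 9.49. The genotypes did not overlap, and the difference of the means was 0.82 (SE 0.19, limma adjusted p = 0.171), or 0.57 (SE 0.17) in its second probe set. Manf, a secreted ER stress factor, read 10.26, 10.13 and 10.30 against 9.57, 9.92 and 9.87, without overlap and with a difference of 0.45 (SE 0.11, limma adjusted p = 0.194).

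Xbp1, the transcription factor that IRE1 activates by splicing, is added here after its value was seen. It read 11.49, 11.30 and 11.62 against 10.97, 11.17 and 11.07, without overlap and with a difference of 0.40 (SE 0.10, limma adjusted p = 0.202), and each of its 4 probe sets was higher, by 0.17 to 0.41. The array measures the transcript and not its splicing. Ero1b, an oxidase that drives disulfide formation, read 7.83, 7.83 and 8.11 against 8.34, 8.26 and 8.39, without overlap. Its difference was -0.41 (SE 0.10, limma adjusted p = 0.181). A dimmer probe set of it differed by 0.52 (SE 0.24), the opposite direction.

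The translocation genes had, of the 5 arms, the narrowest intervals by median half-width (0.18). Of the 8 measured, 6 were higher and 2 lower, with a median of 0.02 and differences from -0.08 to 0.16, and each 95% interval lay within 0.5. Sec61a1, the pore of the channel, read 11.03, 10.98 and 11.13 in knockout arrays against 10.90, 10.97 and 10.93 in wild-type arrays. The groups were separate by a narrow margin, with a difference of 0.11 (SE 0.07, limma adjusted p = 0.607). Its other 5 probe sets differed by -0.09 to 0.13, 2 of them below 0.

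The subunits of the translocon-associated complex TRAP, which helps chains enter the channel, did not share a direction. Ssr1 read 10.11, 9.93 and 9.91 against 9.79, 10.02 and 9.67, with overlap and a difference of 0.16 (SE 0.11, limma adjusted p = 0.643). Ssr2 read 8.77, 8.67 and 8.75 against 8.64, 8.76 and 8.58, with a difference of 0.07 (SE 0.08, limma adjusted p = 0.777). Ssr3 differed by -0.08 (SE 0.09). Sec61b, the tail-anchored channel subunit, differed by 0.03 (SE 0.07), the signal recognition particle subunit Srp9 by 0.02 (SE 0.06), the signal peptidase subunit Spcs2 by 0.00 (SE 0.07) and the oligosaccharyltransferase subunit Ostc by -0.08 (SE 0.09). A dimmer probe set of Srp9 differed by -0.14 (SE 0.07) without overlap, and the mean of that gene's probe sets by -0.06. Wild type replicate 2 was the highest wild-type array for 7 of these 8 genes, as it was for the chaperones.

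Of 25 further measured translocation, signal recognition and oligosaccharyltransferase genes (28 listed), 11 were higher and 14 lower, with a median of -0.00, and 0 passed limma's adjusted threshold. Tusc3, an oxidoreductase subunit of the oligosaccharyltransferase, differed by -0.20 (SE 0.07, limma adjusted p = 0.377). Srpr, the receptor of the signal recognition particle, differed by 0.18 (SE 0.07, limma adjusted p = 0.413). Ssr4, the remaining TRAP subunit, differed by 0.16 (SE 0.08, limma adjusted p = 0.519), while its dimmer probe sets differed by -0.05 and -0.17.

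Several of the genes above are strongly expressed by plasma cells, so markers of other cell types were read in the same arrays. Of the defining T cell and Treg transcripts, Cd3e read 11.81 to 12.04, Foxp3 10.18 to 10.40 and Ikzf2, the dimmest, 5.98 to 6.38, while the array medians over all probe sets were 6.22 to 6.27. Of 8 such markers 6 were higher and 2 lower, and 0 passed limma's adjusted threshold. Of 9 measured plasma cell markers (11 listed), none of which is in an ER list, 8 were higher and 1 lower. This marker list was chosen with earlier results of these data known, so its count is a description. Of the 9, 2 passed limma's adjusted threshold, against 0.161% of all genes. These were Igha, higher by 1.81 (SE 0.14, limma adjusted p = 0.0105), and Igk, higher by 2.20 (SE 0.20, limma adjusted p = 0.0143). Igha read 14.27, 14.27 and 14.36 in knockout arrays against 12.18, 12.58 and 12.70 in wild-type arrays, so the marker was present in both genotypes. The receptor gene Tnfrsf17 differed by 1.15 (SE 0.29, limma adjusted p = 0.206) and Sdc1 by 0.64 (SE 0.22, limma adjusted p = 0.343), each without overlap. Jchain, also without overlap, differed by 0.58 (SE 0.14, limma adjusted p = 0.199). The genotypes overlapped for Irf4 (0.32), Prdm1 (0.13), Pou2af1 (0.12) and Ighm (-0.02). The log2 of the summed linear signal of the 9 markers was 15.72 to 15.92 in the knockout and 14.96 to 15.27 in wild type. RMA gives no 0 for an absent transcript and the table has no detection calls, so which of the 9 were absent from an array cannot be read.

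Relative to the wild-type mean the plasma cell markers averaged 0.77, 0.54 and 1.0 in knockout replicates 1, 2 and 3. The genes of the IRE1 and XBP1 arm averaged 0.21, 0.01 and 0.26 in the same arrays, and the further XBP1 and ATF6 targets 0.07, -0.01 and 0.17. In each of these 3 groups knockout replicate 3 was the highest and knockout replicate 2 the lowest. That order was not particular to them, since the sensors and the PERK and ATF4 arm had it too. So did the myeloid and dendritic markers (-0.20, -0.26 and 0.03) and the NK and CD8 T cell markers (-0.09, -0.20 and 0.03). The sensors averaged 0.15, 0.09 and 0.18 and the PERK and ATF4 arm -0.12, -0.22 and 0.08. The further genes of that pathway averaged 0.13, 0.10 and 0.13. In wild type the sensors averaged -0.08, 0.03 and 0.05 and those further genes -0.02, -0.03 and 0.04. Both groups were thus separate between genotypes, as the plasma cell markers were. The low value of knockout replicate 2 in the PERK and ATF4 arm includes that of Asns, and replicate 1 was the lowest knockout array for 4 of its 6 genes. The chaperones, at 0.13, -0.06 and 0.03, and the translocation genes, at 0.09, -0.03 and 0.02, were highest in knockout replicate 1. The part of plasma cell RNA in the differences of Edem1, Xbp1, Txndc5, Manf and Derl3 was not tested. In these bulk samples, fewer cells of a type and less RNA per cell cannot be told apart.

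B cell markers did not share the direction of the plasma cell markers. Of 9 measured (10 listed), 4 were higher and 5 lower, with a median of -0.32, and their summed signal was 10.29 to 10.82 in the knockout and 10.72 to 11.18 in wild type. Of 10 measured myeloid and dendritic markers (11 listed) 3 were higher and 7 lower, with summed signals of 11.85 to 12.24 and 12.06 to 12.26. Of 5 measured NK and CD8 T cell markers (6 listed) 1 was higher and 4 lower, with summed signals of 9.11 to 9.24 and 9.08 to 9.50. In these 3 lists 0 passed limma's adjusted threshold, and 11.2% of all genes had an unadjusted p under 0.05. Of the B cell markers 2 did, both lower, of the myeloid and dendritic markers 3, all lower, and of the NK and CD8 T cell markers Cd8a, which was higher, and Cd8b1, which was lower.

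**Figure D4:**
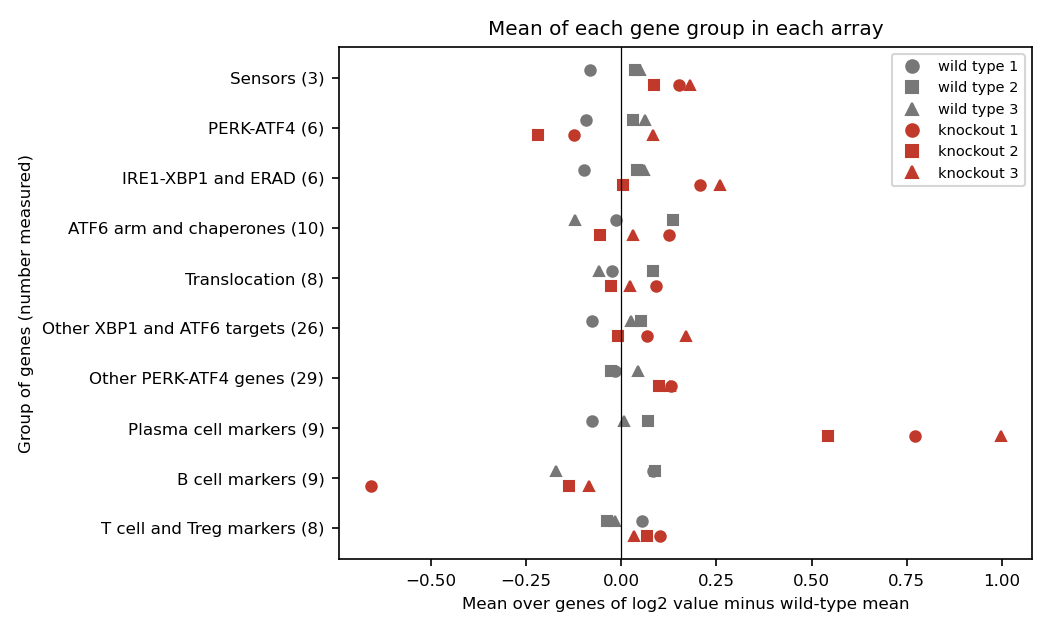
Mean over the genes of a group of the log2 value minus the wild-type mean, for each array (grey for wild type, red for knockout, symbols for replicates 1 to 3), with the number of genes measured in brackets. The plasma cell markers are separate between genotypes at 0.54 to 1.0 in the knockout. The sensors (0.09 to 0.18 against -0.08 to 0.05 in wild type) are separate too. So are the other PERK-ATF4 genes (0.10 to 0.13 against -0.03 to 0.04), while the chaperone and translocation groups overlap around 0.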

How the data were processed

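The authors deposited 1 table of log2 values for 6 one-colour arrays, 3 per genotype, made with RMA per the submitters' processing notes, with no version given. RMA by design corrects background, normalizes by quantiles and summarizes probes. The log2 scale was taken from the range of the values (array medians 6.22 to 6.27), and RMA can understate changes of dim and near-saturated probe sets. Array number, not depth, limits the precision. The 64 control probe sets were left out, which left 22626. Names came from the platform annotation, updated through gene IDs to RefSeq symbols (GRCm38.p6, 20351 IDs found).

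The genotype contrast was fitted in R 4.3.3 by limma 3.58.1 (lmFit, then eBayes, on all probe sets, genotype as the only term, two-sided, Benjamini-Hochberg over 12393 genes or 22626 probe sets, threshold 0.05). The fit was tested on simulated data. A gene was its brightest probe set. The members and lists were chosen with earlier results of these data known. All 34 members were named, with every array for the 3 of smallest p in each arm and for any called, and of each other pathway list any called and the 3 of smallest p. Replicate numbers were not taken as pairs. The alternatives tried were median centring, quantile normalization, a block for replicate number, trend and robust eBayes, array weights, a filter keeping the upper 60% of genes by mean, the mean of a gene's probe sets, an unmoderated test, a threshold of 0.1 and leaving out each array. Figures were drawn with matplotlib 3.10.9.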

Additional observations from a re-analysis of the deposited data

How the results depend on the processing

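In every alternative run, 0 of the 33 genes, 0 of the further pathway genes and, where probe sets were fitted, 0 of the 68 probe sets passed the threshold. The dim filter kept 31 of the 33 genes. The count of all genes past the threshold, 20, became 83 with trend and robust settings, 66 with the filter on dim genes, 0 in the unmoderated test (1353 at an unadjusted p under 0.05) and 71 at a threshold of 0.1. For all probe sets the 44 became 27 with the replicate block, 147 with trend and robust settings, 86 with array weights, 0 in the unmoderated test and 121 at a threshold of 0.1. The cause was not tested. Leaving out 1 array gave 3 to 27 genes, 5 to 51 probe sets and 16 to 25 of the 33 genes higher. The replicate block gave 14 genes and moved no member across the threshold. Deviations of same-numbered arrays from their group means correlated at 0.22, -0.09 and 0.10, and not every array correlated best with its own number, so the numbers were not taken as pairs.

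The median difference of the sensors, 0.11, ran from 0.0061 (without wild type replicate 2) to 0.17 when 1 array was left out. The medians of the other arms moved by less than the spread between replicates in each alternative, with changes of sign for the PERK and ATF4 arm (-0.10 to 0.11), the chaperones (-0.05 to 0.07) and the translocation genes (-0.00 to 0.05). Of the 33 genes, 0 to 7 changed sign in an alternative, and the largest of those differences was 0.09. The counts of probe sets, of further pathway genes and of members by sign were added as results after the data were seen.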
